A study of Thermochaetoides thermophila with 9 samples.

Results

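Of the 7785 genes listed for Chaetomium thermophilum, a thermophilic filamentous fungus, 142 (1.82%) were low after exposure to xylose while glucose left them near the level of the sugar-free reference. They were chosen by their own read counts. After scaling each library, every xylose library had to lie below every glucose and every reference library, the xylose mean had to be at most 1/4 of the glucose mean and of the reference mean, the glucose mean had to be 0.67 to 1.5 times the reference mean, and the reference mean had to reach 100 normalised counts. A normalised count is the number of reads counted on a gene divided by the size factor of its library, which is the median ratio of that library to the geometric mean of all libraries over the genes with at least 10 reads in every library. Since these limits used every contrast between the 3 conditions, the values of the 142 genes are given as a description, without p-values.

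All mycelia were wildtype. They had been depleted of sugar in a liquid minimal medium, and were then kept for 6 h in this medium with 1% (w/v) D-xylose (3 cultures), with 1% (w/v) D-glucose (3 cultures), or without sugar (3 reference cultures). For the reference, a figure legend of the study gives these 6 h, while its Methods name them only for the sugar cultures. The depletion lasted 48 h according to the sample labels, and the study's Methods give a shorter time. The labels give 50 °C for growth of all cultures, and the study is not uniform on the temperature of the later steps. The medium of all 3 conditions held peptone and yeast extract, so the reference lacked sugar but not every source of carbon. Polyadenylated RNA of each culture was sequenced once, and the replicates of a condition are labelled as biological replicates.

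Fungi take up sugars in a preferred order, and glucose usually comes first: in Aspergillus and Saccharomyces a repressor (CreA and Mig1) silences the genes for other carbon sources while glucose is present. Xylose, a pentose of hemicellulose, is reduced to xylitol, oxidised to xylulose, phosphorylated and then enters the pentose phosphate pathway. When no sugar is present, cells make hexose phosphates from smaller molecules by gluconeogenesis and recycle their own protein and membranes through the proteasome and autophagy.

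The 9 libraries held 38806913 to 52229013 reads counted on genes. The 26S rRNA gene (CTHT_0000050) took 11.6 to 13.3% of the counts in xylose libraries, 7.36 to 22.9% in glucose libraries and 15.7 to 32.0% in reference libraries. Its part in the results below was not tested. The labels name a whole cell extract of 1 fungus, so no other cell type was looked for, and no member had a word for conidiation, sporulation, pheromone, mating or meiosis in its name, so the developmental state could not be checked by them. Size factors were 1.03 to 1.29 in xylose, 0.580 to 1.15 in glucose and 0.904 to 1.12 in the reference.

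Together the 142 genes took 1.00 to 1.60% of all counts in the xylose libraries, against 7.96, 8.58 and 7.90% in the glucose libraries and 8.91, 10.3 and 8.45% in the reference libraries. Without the 26S rRNA gene the shares were 1.16 to 1.81% in xylose, 8.60 to 10.3% in glucose and 10.8 to 12.4% in the reference. In a bulk culture, fewer cells that transcribe a gene and less of its RNA per cell cannot be told apart. The median member had 15.9% of its reference level in xylose, that is, a reference mean 6.28 times the xylose mean, and a glucose mean 6.60 times the xylose mean. The smaller of these folds ran from 4.004 to 40.6, with quartiles at 4.79 and 7.91, and it was under 5 in 45 genes, at least 10 in 24 and at least 20 in 5. The ratio of glucose to reference had a median of 0.982 and was above 1 in 68 genes and at or below 1 in 74.

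**Figure D1:**
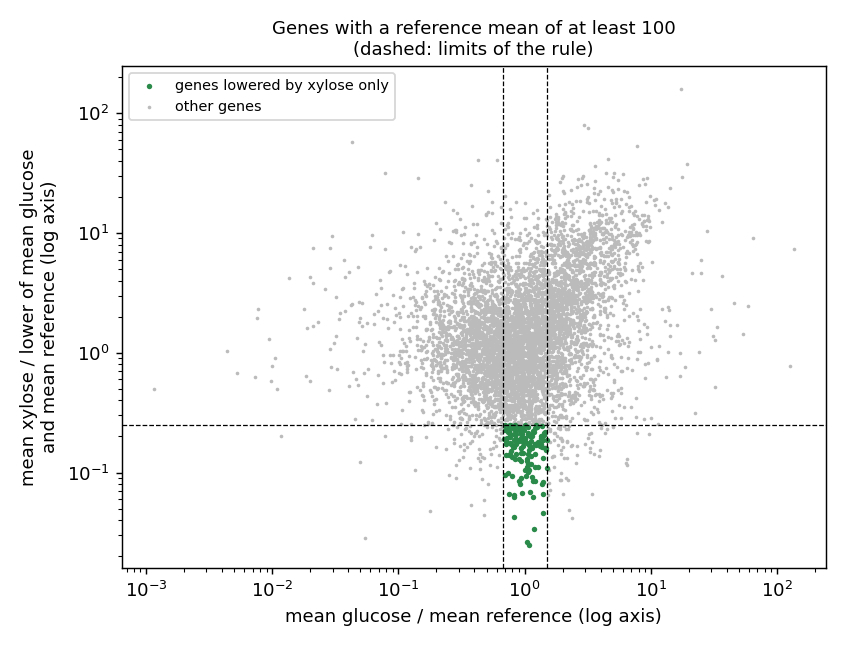
Each point is 1 of 6249 genes with a reference mean of at least 100; the x axis is the ratio of mean glucose to mean reference and the y axis the ratio of mean xylose to the lower of these means, both log axes without unit. The 142 genes (green) fill the box under the dashed line at 1/4 and between 0.67 and 1.5, and grey points continue on both sides of it.

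Genes lowered by xylose continued beyond the window for glucose. With the limits on the ratio of glucose to reference set aside, 282 genes met the rest of the rule: 70 were lower in glucose than 0.67 times the reference, 142 lay inside, and 70 were above 1.5 times. Over these 282 genes the ratio ran from 0.0117 to 9.63 with a median of 0.982. At the lower limit the closest members were CTHT_0015630 (ratio 0.685), the gene of the signal recognition particle RNA (ENSRNA049505814, 0.694) and CTHT_0036450 (0.695), and the closest genes outside were CTHT_0024180 (0.668), CTHT_0038030 (0.665) and the ion channel-like gene CTHT_0032580 (0.662). The place of CTHT_0015630 rested on 1 library, since its ratio was 1.66 without reference 2. At the upper limit CTHT_0058890 (1.49), CTHT_0031350 (1.49) and CTHT_0029500 (1.47) were inside, while CTHT_0067090 (1.54), CTHT_0027210 (1.54) and the chitinase-like gene CTHT_0018850 (1.56) were outside. For the fold, CTHT_0068150 (4.004), CTHT_0050680 (4.04) and CTHT_0037910 (4.04) were inside, and CTHT_0017400 (3.9985), CTHT_0069340 (3.98) and CTHT_0018460 (3.97) outside. For the reference mean, CTHT_0047520 (103.9), CTHT_0010390 (131.7) and CTHT_0074380 (136.6) were inside, and CTHT_0043310 (96.6), CTHT_0058960 (72.6) and CTHT_0033340 (65.0) outside.

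The same rule turned to the other conditions found 13 genes lowered by glucose only, 130 genes higher in the reference than with either sugar, 141 genes raised by xylose only and 55 raised by glucose only. Members lowered by xylose only were thus about as many as genes raised by it alone, and no test was made of these counts.

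A gap between the libraries of every member follows from the rule, which also sets the means at least 4 times apart. Its size is given as a description. The lowest glucose or reference library had a median of 3.05 times the highest xylose library, and at least 2 times in 124 genes. It was under 1.5 times in 6 genes, with the smallest gaps in CTHT_0034760 (1.16 times), CTHT_0032560 (1.20 times) and CTHT_0031360 (1.33 times), all uncharacterized. No gene missed the rule by this criterion alone. Of the 6249 genes with a reference mean of at least 100, 21.5% had every xylose library below every other library.

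For the background, the quasi-likelihood test of edgeR was fitted to all 9 libraries, with p-values adjusted by the Benjamini-Hochberg method over all genes tested. It called 32.4% of the 6904 genes tested lower in xylose than in the reference and 22.6% lower in xylose than in glucose, and 49.5% differed between glucose and reference. All 142 members were tested, 142 were called lower in each xylose comparison and 0 between glucose and reference. Between glucose and reference the DESeq2 Wald test also called 0 of them, and 1 had an unadjusted edgeR p under 0.05. The rule used these contrasts, so nothing is read from the counts. The fitted log2-fold change had a median of -2.57 over the members for xylose over reference and -2.62 for xylose over glucose, beside -0.05 and 0.16 over all genes tested.

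**Figure D2:**
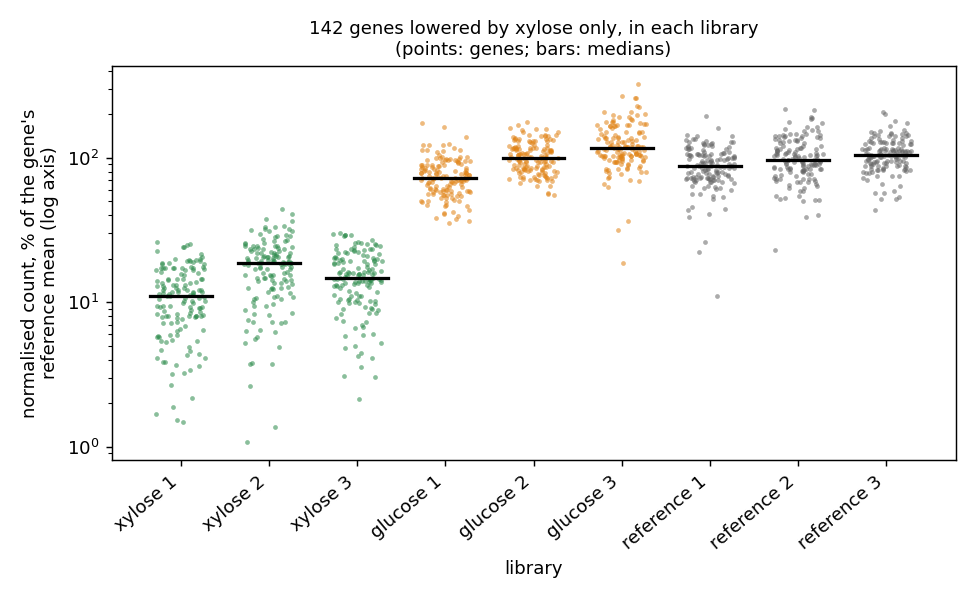
Each point is 1 of the 142 genes in 1 library; the y axis (log axis) is its normalised count as a percentage of its own reference mean, and black bars are medians. Medians were 11.0, 18.6 and 14.7% in the xylose libraries, 72.4, 99.7 and 117% in the glucose libraries and 87.7, 97.0 and 105% in the reference libraries.

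Libraries of 1 condition did not sit at the same level. Xylose 1 was the lowest xylose library in 85 of the 142 genes and the highest in 13, whereas xylose 2 was the highest in 81 and xylose 3 in 48. Among all 6249 genes xylose 1 was the highest of its condition in 24.3%, xylose 2 in 44.3% and xylose 3 in 31.4%. Glucose 1 was the lowest glucose library in 126 members and glucose 3 the highest in 109, and glucose 3 had the smallest size factor and the highest share of 26S rRNA of its condition. Over all 6249 genes, glucose 1, 2 and 3 were the highest of their condition in 37.9, 21.7 and 40.4%. The share of all genes that were lowest in a library was not computed. From the mean of its condition, xylose 1 deviated by a median log2 of -0.356 over the members and -0.075 over the 6249 genes. For glucose 1 these medians were -0.36 and 0.006. The part of library composition in the order of the libraries was not tested. The coefficient of variation had a median of 35.8% in xylose, 28.5% in glucose and 28.9% in the reference over the members, against 23.0, 16.3 and 26.2% over the 6249 genes.

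Without 1 library at a time, 121 to 187 genes met the rule, and 64 of the 142 met it in all 9 such subsets. The highest number, 187, came without xylose 2, and 139 of the members were among them. For 104 members no single library moved a ratio between conditions by more than 1.5 times, and for 38 at least 1 did. Xylose 2 did so for 15 members, glucose 3 for 9, reference 2 for 7, xylose 3 for 6, reference 3 for 4 and reference 1 for 1.

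By type, 139 members are protein-coding genes, 2 are pseudogenes and 1 is the signal recognition particle RNA. Of the 142, 49 have a product name or an orthology number in the annotation sheets that accompany the study, and 89 are uncharacterized proteins without one there, of which 4 are described in the study's list of 50 genes. That list was not used for the word lists. Lists by words in these names took in 30 members. Counts below are not corrected for gene length, so they compare conditions within a gene and not levels between genes.

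The gene with the best-known role is CTHT_0044390, a phosphoenolpyruvate carboxykinase (PEPCK, the ATP-using form), which makes phosphoenolpyruvate from oxaloacetate at the entry of gluconeogenesis. It had 2700.2, 3286 and 3780.4 normalised counts in xylose, against 116466, 148883 and 124729.6 in glucose and 89905, 215832 and 66746 in the reference. The xylose libraries lay within a narrow range far below the rest, and glucose and reference overlapped, with reference 2 the highest of all 9. The xylose mean was 2.62% of the reference mean, and the fitted log2-fold changes were -5.17 (SE 0.58) over reference and -5.21 (SE 0.58) over glucose. Without reference 2 the reference was 24.1 times xylose rather than 38.1 times, and glucose was 1.66 times the reference rather than 1.05 times, which is outside the rule. In Saccharomyces, as background, the PEPCK gene is silenced by glucose.

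The other member of the gluconeogenesis list, CTHT_0000660, is named fructose-2,6-bisphosphatase-like and carries the orthology number of the enzyme that makes and breaks fructose 2,6-bisphosphate, the regulator that sets glycolysis against gluconeogenesis. It had 1932, 4945 and 5246 normalised counts in xylose, 18849, 26669.8 and 39592 in glucose and 17241, 29690.0 and 23666 in the reference, and its xylose mean was 17.2% of the reference mean. Xylose 1 was the lowest library by more than 2 times.

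Genes of the same pathway outside the 142 were examined through the product names of about 2000 genes that the study ranked by abundance in glucose, of which 1999 were tested. Genes without such a name are missed, so these lists are incomplete. Members were placed in lists by product name or orthology text, and genes of this sheet by product name alone. Of the 4 genes there that the words of the gluconeogenesis list took in, 2 are the members above, and the other two were lower in xylose than in the reference and than in glucose by edgeR's test. Fructose-1,6-bisphosphatase-like CTHT_0042460, which removes phosphate from fructose 1,6-bisphosphate in the pathway, had 689, 1853 and 1272 normalised counts in xylose, 19538, 27227 and 18084 in glucose and 37572, 55172 and 42507 in the reference (log2-fold change -5.07 over reference, edgeR adjusted p = 7.9e-06, and -3.99 over glucose, adjusted p = 7.3e-05). Its reference libraries were all above its glucose libraries, and its glucose mean was under 0.67 times its reference mean. CTHT_0008350, 6-phosphofructo-2-kinase 1-like, is named for the synthesis of fructose 2,6-bisphosphate, which activates glycolysis and inhibits gluconeogenesis, so it is a regulator and no enzyme of the pathway. It had 5409.7, 10496 and 6247 in xylose, 27520.2, 53872 and 103027 in glucose and 19170.1, 38166 and 33169.8 in the reference (log2-fold change -1.95 over reference, edgeR adjusted p = 0.0061, and -2.95 over glucose, adjusted p = 0.00099). Of the 1909 genes of that sheet that are not members, whether or not they have a product name, 29.5% were lower in xylose than in the reference and 34.3% lower than in glucose.

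A further gene with the orthology number of PEPCK, CTHT_0017070, had 1447, 1553 and 1115 normalised counts in xylose, 4878, 7475 and 2606 in glucose and 7965, 3548 and 8956 in the reference. Its xylose libraries were also the lowest, but the means differed less, at 1372 in xylose, 4986 in glucose and 6823 in the reference. How reads that match both genes were counted is not given in the sources used here.

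**Figure D3:**
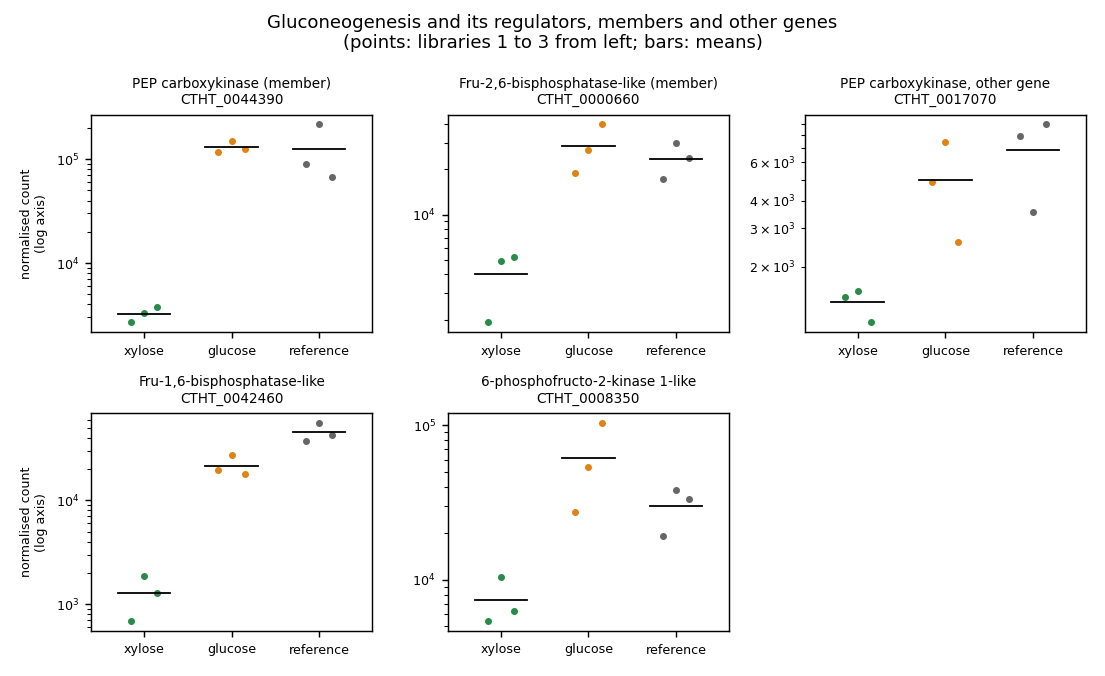
Normalised counts (log axes) of 3 enzymes of gluconeogenesis and 2 enzymes of fructose 2,6-bisphosphate turnover in the xylose (green), glucose (orange) and reference (grey) libraries; points are libraries 1 to 3 and bars means. The xylose libraries are the lowest in all 5, which the rule requires of the members. Glucose lies below the reference in all libraries only for the fructose-1,6-bisphosphatase-like gene.

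Lactate oxidation had 1 member, the mitochondrial cytochrome b2-like CTHT_0032370, which passes electrons from L-lactate to cytochrome c. Its counts were 3669, 6329 and 9162 in xylose, 25578, 34873 and 42284 in glucose and 36040.3, 29032 and 28924 in the reference, a xylose mean of 20.4% of the reference mean. Of 4 further genes that product names placed in the two-carbon and lactate list, 2 were lower in xylose than in the reference and 3 lower than in glucose. Over the 1909 genes of the sheet these shares were 29.5 and 34.3%. Acetate kinase CTHT_0010030, which makes acetyl phosphate from acetate or the reverse, had 507, 3118 and 1746 in xylose, 21065, 54992 and 45056 in glucose and 25809, 12647 and 23777 in the reference. Isocitrate lyase CTHT_0010800, the first enzyme of the glyoxylate bypass, had 5511, 6021 and 7520.4 in xylose, 5304, 4205 and 4233 in glucose and 4661, 8917 and 4508 in the reference, and passed neither test.

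Protein quality control included some of the most read members. CTHT_0022720 carries the orthology number of the ATP-binding subunit of the Clp protease family (ClpB, whose yeast counterpart Hsp104 takes protein aggregates apart). It had 15598, 23647 and 109895 normalised counts in xylose, against 291616, 435556 and 462070.4 in glucose and 339676, 421931 and 380067 in the reference. Xylose 3 was far above the other xylose libraries, and below every glucose and reference library, as the rule requires. The reference was 7.66 times xylose with all libraries and 19.4 times without xylose 3.

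CTHT_0065710, a DnaJ homolog of subfamily B and so a partner of Hsp70, showed the same order, with 3089, 4320.0 and 10092 in xylose, 17223, 21466 and 32102 in glucose and 26201, 47421 and 27791 in the reference. Its glucose mean was 4.04 times the xylose mean, and 6.37 times without xylose 3. The gene next to CTHT_0022720 in the genome, CTHT_0022710, is named an L-ascorbic acid binding protein and had 891, 1698 and 2190.3 in xylose, 10374, 15298 and 14220.1 in glucose and 13113, 6019.5 and 14140.1 in the reference. In it, too, xylose 3 was the highest xylose library.

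Xylose 3 was compared with the mean of xylose 1 and 2 over the 35 genes of the heat shock and stress list with a reference mean of at least 100, members included. The ratio had a median of 1.26 over this list, against 0.994 over all 6249 genes and 1.00 over the 142 members, and xylose 3 was the highest xylose library in 22 of the 35. Xylose 3 was the highest in 48 of the 142 members and in 31.4% of the 6249 genes. The ratio exceeded 2 in 12 of the 142 members, a larger share than the 2.53% of the 6249 genes. The highest value in the list was that of CTHT_0022720 (5.60), followed by a heat shock gene outside the rule, CTHT_0021290 (3.99), with 18225, 18276 and 72869.6 in xylose, 52007, 71081 and 140035 in glucose and 194436, 384473 and 249376 in the reference.

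Of the 19 heat shock and stress genes of the abundance-ranked sheet outside the 142, 6 were lower and 7 higher in xylose than in the reference, and 7 were lower and 2 higher than in glucose. The shares lower, 31.6 and 36.8%, were near the 29.5 and 34.3% of the 1909 genes of the sheet. The mitochondrial Hsp60-like gene CTHT_0006080, for example, had 30490.1, 43651 and 44732 in xylose, 41329.6, 43538 and 37326 in glucose and 18258, 19529 and 11423 in the reference, and was higher in xylose than in the reference (log2-fold change 1.35, edgeR adjusted p = 0.0059). Hsp90-like CTHT_0068330 had 70883, 73680.4 and 119759.8 in xylose, 114546, 111371 and 141323 in glucose and 81364, 88733 and 62100.4 in the reference and passed neither test.

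**Figure D4:**
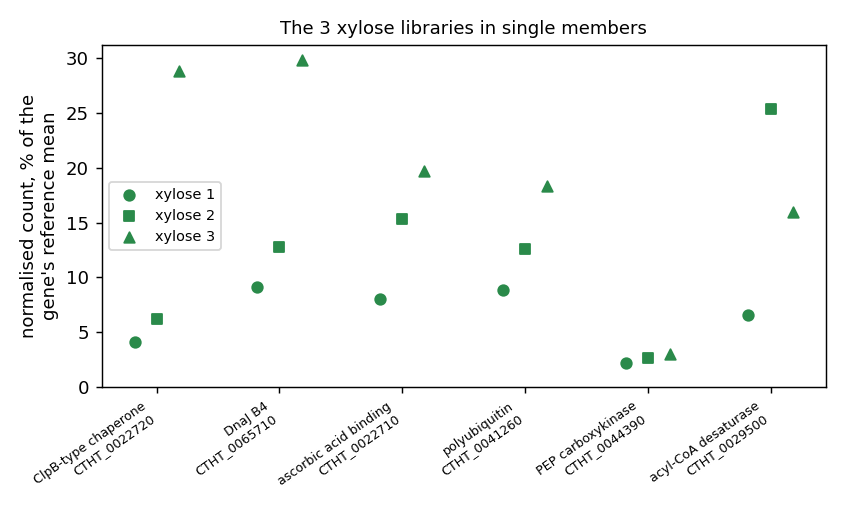
The 3 xylose libraries (circle, square and triangle) of 6 members, as a percentage of each gene's reference mean. Xylose 3 is the highest in the ClpB-type chaperone (28.9%), the DnaJ homolog (29.9%), the ascorbic acid binding gene (19.8%) and polyubiquitin (18.3%), while all 3 libraries of PEPCK lie between 2.17 and 3.04% and xylose 2 is highest in the desaturase (25.4%).

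Ubiquitin and autophagy had 3 members. CTHT_0041260 carries the orthology number of polyubiquitin, the tandem precursor of the protein tag that marks substrates for the proteasome, and had 35239.9, 50069 and 72867 normalised counts in xylose, 210749.7, 340976 and 419647 in glucose and 338263, 431195 and 425348 in the reference. Since ubiquitin repeats and ubiquitin fusion genes resemble each other, reads could have been shared among them, and this value is uncertain to that extent. CTHT_0062850, which matches NBR1, a receptor that brings ubiquitin-tagged cargo to autophagosomes, had 4465, 9960.3 and 5719.9 in xylose, 37686, 48936 and 57109.9 in glucose and 31073, 39223 and 42761 in the reference. The F-box gene CTHT_0025520, of the kind that selects substrates for a ubiquitin ligase, had 302, 832 and 234 in xylose, 2217, 3646 and 4787 in glucose and 2671, 2388 and 2777 in the reference. The rule requires every xylose library to be below the rest. Xylose means of the 3 genes were 13.2, 17.8 and 17.5% of the reference means. Without xylose 2 the reference was 9.76 times xylose for CTHT_0025520, rather than 5.73 times.

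Outside the 142, 27 genes that product names placed in that list were tested. None of the members above was found in this way. Of the 27, 14 were lower and 6 higher in xylose than in the reference, and 15 lower and 2 higher than in glucose. These shares, 51.9 and 55.6% lower, stand beside 29.5 and 34.3% of the 1909 genes of the sheet. Autophagy-related CTHT_0057390 had 1016, 951 and 808 in xylose, 4421, 7281 and 9126 in glucose and 14196, 13676 and 20952 in the reference (log2-fold change -4.06 over reference, edgeR adjusted p = 6.3e-06). The RING-type E3 gene CTHT_0008040 had 2389, 6970.1 and 8439 in xylose, 48088, 75435 and 93580.0 in glucose and 27769, 39344 and 32779 in the reference (log2-fold change -3.50 over glucose, edgeR adjusted p = 0.0003).

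Peptidases numbered 3, one of them CTHT_0022720, which the word protease in its orthology text brought in. The aminopeptidase CTHT_0036100, which removes amino acids from the N-terminal end of peptides, had 2409, 1986 and 3212 in xylose, 10598, 14401 and 14498 in glucose and 19585, 15159 and 20015 in the reference. The aspartic-type endopeptidase-like CTHT_0013610 had 1551, 999 and 2764 in xylose, 7690.3, 10739 and 10838 in glucose and 14477, 13458 and 13405 in the reference. Both had glucose means near the lower limit, at 0.72 and 0.71 times the reference mean. Of 30 further peptidase genes, 7 were lower and 8 higher in xylose than in the reference, and 9 lower and 3 higher than in glucose. That is 23.3 and 30.0% lower, beside 29.5 and 34.3% of the 1909 genes of the sheet.

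A cyclin was among the 5 members with the deepest falls. CTHT_0041810, named a pcl1-like G1/S cyclin, had 3404, 4695 and 5231 normalised counts in xylose, 50329, 92215 and 168707 in glucose and 114924, 105628 and 158763 in the reference, and its xylose mean was 3.51% of the reference mean (log2-fold changes of -4.75, SE 0.57, over reference and -4.44, SE 0.56, over glucose). In Saccharomyces, Pcl1 is a cyclin partner of the Pho85 kinase. The glucose libraries of this gene spread widely, from well under to above the reference libraries. It did not meet the rule in every subset without 1 library, nor under every other scaling. Another G1/S cyclin-like gene, CTHT_0012730, had 6614, 7015 and 5454 in xylose, 29722, 45008 and 67526 in glucose and 25552, 36503 and 40030.3 in the reference. Nor did CTHT_0012730 meet the rule in every such subset or under every other scaling.

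The serine/threonine protein kinase-like CTHT_0023680 had 5493, 9067 and 9080.5 in xylose, 45467, 54295 and 55659 in glucose and 69932, 61909 and 67386 in the reference, with little spread in glucose and reference. Here the glucose libraries were all below the reference libraries, at a mean ratio of 0.78. The MAP kinase phosphatase CTHT_0002010, of the kind that switches MAP kinases off, had a xylose mean of 21.0% and the phosphoinositide-binding CTHT_0026270 one of 16.3% of the reference mean. PEPCK was also taken into this list by the letters of its name and is no signalling gene.

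Among 29 further genes of the signalling list, 18 were lower and 7 higher in xylose than in the reference, and 17 lower and 2 higher than in glucose. Shares lower were 62.1 and 58.6%, beside 29.5 and 34.3% of the 1909 genes of the sheet. The list was made by words and holds metabolic kinases such as adenosine kinase, and 1 antiporter through the letters of tetracycline. The annexin CTHT_0042110, a calcium-dependent membrane-binding protein, had 1082, 2190.0 and 978 in xylose, 19741, 19726 and 47613 in glucose and 8299, 2979 and 15057 in the reference (log2-fold change -4.26 over glucose, edgeR adjusted p = 0.00034).

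Transport was the largest list, with 9 members. The most read was CTHT_0004080, an unspecified transporter, with 3137, 7839.9 and 8557 in xylose, 25556, 41915 and 49280.2 in glucose and 48797, 33279 and 38211 in the reference. CTHT_0064450 matches a family of UDP-sugar carriers, which bring sugar nucleotides into the secretory pathway, and had 2484, 4281 and 3279.8 in xylose, 19607, 29577 and 57823 in glucose and 24595, 23742 and 27597 in the reference. The P-type ATPase-like CTHT_0020970, an ion pump, had 4101, 7202 and 3472 in xylose, 23745, 23239.5 and 33284 in glucose and 30115, 19566 and 23523 in the reference. Glucose and reference overlapped in all 3 genes.

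Members for calcium export from the cytosol were the Ca2+:H+ antiporter CTHT_0007680 and the Ca2+-transporting ATPase CTHT_0049840. The antiporter had 2389, 4638 and 3819 in xylose, 12154, 21211 and 32598 in glucose and 11057, 26208 and 21969 in the reference. The ATPase had 1453, 1648 and 1297 in xylose, 5429, 8437 and 23108 in glucose and 5443, 9294 and 12174 in the reference. Glucose 3 stood well above the rest in the ATPase, and without it glucose was 4.73 times xylose rather than 8.41 times. Of 4 further genes with the orthology number of the antiporter, CTHT_0041470 had means of 682 in xylose, 3475 in glucose and 1881 in the reference, and CTHT_0073670 had 2047 in xylose, 5396 in glucose and 5938 in the reference. CTHT_0029940 had 97.7 in xylose, 188 in glucose and 468 in the reference, and CTHT_0055690 had 21.6 in xylose, 30.0 in glucose and 92.6 in the reference.

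Other transport members were a K+/H+ antiporter (CTHT_0041200), an equilibrative nucleoside transporter (CTHT_0024830), an ABC transporter (CTHT_0059550) and a putative sugar transporter (CTHT_0049030), with xylose means of 16.5, 14.9, 17.9 and 8.39% of the reference means. The sugar transporter gene had few reads, with 13.9, 15.5 and 7.73 in xylose, 86.2, 146 and 392 in glucose and 103, 208 and 132 in the reference. Without glucose 3 its glucose mean was 9.39 times the xylose mean rather than 16.8 times. For CTHT_0041200 glucose was 4.36 times xylose without glucose 3, rather than 6.62 times. Of 16 further transport genes, 8 were lower and 1 higher in xylose than in the reference, and 11 lower and 1 higher than in glucose. As shares, 50.0 and 68.75% were lower, beside 29.5 and 34.3% of the 1909 genes of the sheet.

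**Figure D5:**
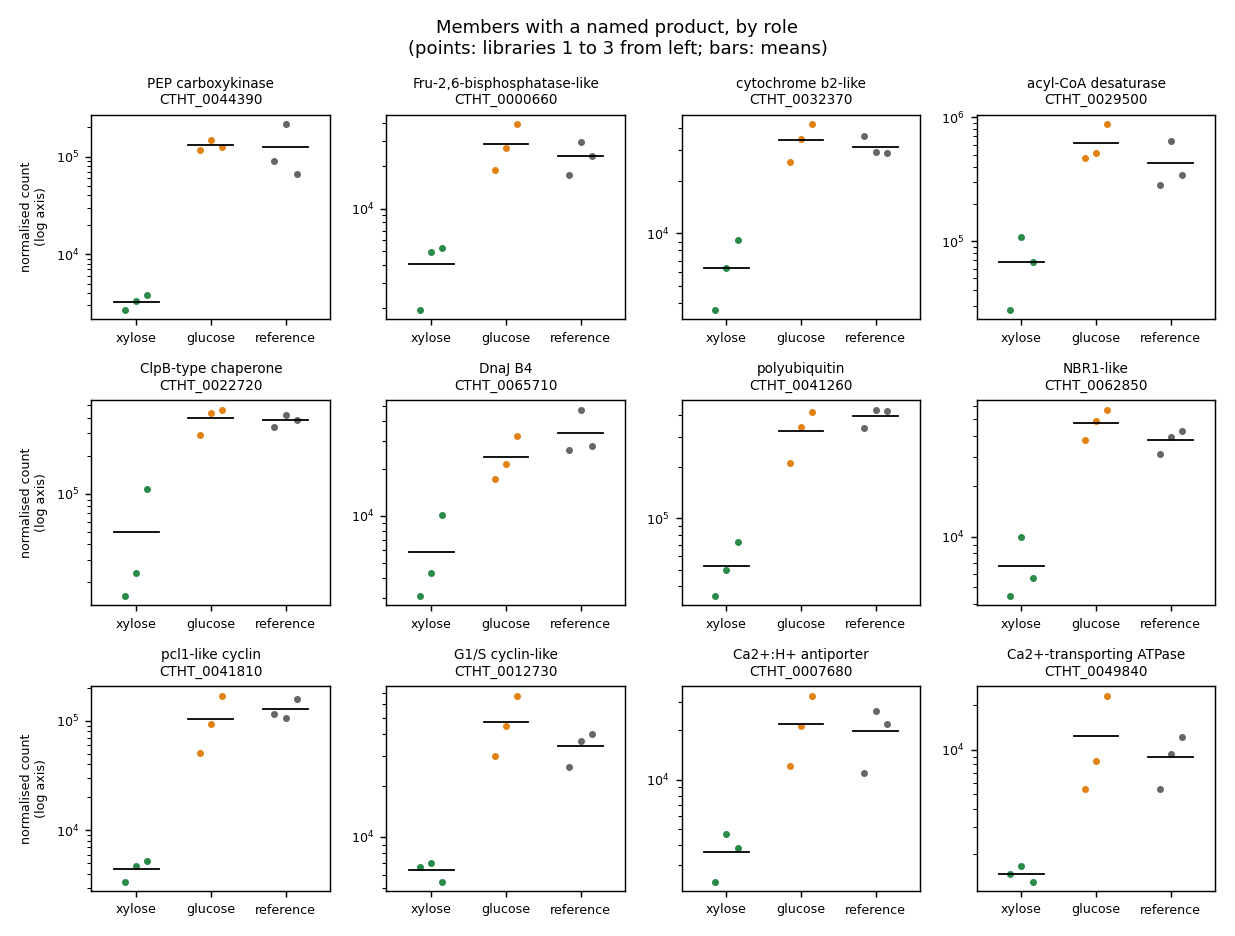
Normalised counts (log axes) of 12 members with a named product in the xylose (green), glucose (orange) and reference (grey) libraries; points are libraries 1 to 3 and bars means. As the rule requires, the xylose libraries are the lowest in each panel. Their range is narrow in PEPCK (2.17 to 3.04% of its reference mean) and wide in the ClpB-type chaperone (4.10 to 28.9%).

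Lipid genes numbered 2. The acyl-CoA desaturase CTHT_0029500, which introduces the first double bond into stearoyl-CoA and palmitoyl-CoA, had 27872, 107530.4 and 67660.5 normalised counts in xylose, 467529, 514269 and 885089 in glucose and 282255, 647900.4 and 342264 in the reference. Its glucose mean was 1.47 times the reference mean, close to the limit of 1.5, and glucose and reference libraries overlapped. CTHT_0047600, which matches a triacylglycerol lipase that releases fatty acids from stored fat, had 621, 587 and 591 in xylose, 2182, 3804 and 3816 in glucose and 2279, 2735 and 3669 in the reference. Its 3 xylose libraries were nearly equal, and its log2-fold change over reference was -2.19 (SE 0.28). Of 5 further lipid genes, 1 was lower and 3 higher in xylose than in the reference, and 2 were lower than in glucose. Among the 1909 genes of the sheet, 29.5 and 34.3% were lower.

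Cell wall genes numbered 2: the putative cell wall protein CTHT_0072510, with 6822, 8321 and 7486 in xylose, 34397, 41760.2 and 43325 in glucose and 38455, 55785 and 25376 in the reference, and the alpha-1,2-mannosidase CTHT_0050430, a trimming enzyme of N-glycans, with 649.9, 476 and 434 in xylose, 1905, 3193 and 2126 in glucose and 3304, 1524 and 2936 in the reference. A pair of further mannosidase genes with that orthology number had the opposite order. CTHT_0016550 had means of 1308 in xylose, 290 in glucose and 750.0 in the reference, and CTHT_0068950 had 1006 in xylose, 250 in glucose and 585 in the reference. Outside the 142, 12 of 17 genes of the cell wall list were lower and 1 higher in xylose than in the reference, and 9 were lower than in glucose. Lower were thus 70.6 and 52.9%, beside 29.5 and 34.3% of the 1909 genes of the sheet. The chitinase-like CTHT_0018850, of the enzymes that cut chitin, had 3979.9, 4734 and 5298 in xylose, 60079, 57116 and 90556 in glucose and 51088, 38063 and 43978 in the reference (log2-fold changes of -3.17 over reference, edgeR adjusted p = 4e-05, and -3.79 over glucose, adjusted p = 6.5e-05). It missed the rule only by its glucose mean.

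Transcription had 1 member, CTHT_0062740, with a forkhead-associated domain, which binds phosphorylated threonine and is not the DNA-binding forkhead domain; its xylose mean was 16.0% of the reference mean, and it entered the list by the word forkhead. Without xylose 2 its reference mean was 10.05 times rather than 6.25 times its xylose mean. Outside the 142, 18 of 38 genes of this list were lower and 8 higher in xylose than in the reference, and 16 were lower and 4 higher than in glucose. That made 47.4 and 42.1% lower, beside 29.5 and 34.3% of the 1909 genes of the sheet. No member was in the amino acid breakdown list. There, 3 of 6 genes were lower and 2 higher in xylose than in the reference, and 1 was lower and 2 higher than in glucose. NAD-specific glutamate dehydrogenase CTHT_0027020, which releases ammonium from glutamate, had 19191, 53365 and 30307 in xylose, 78135, 85909 and 126911 in glucose and 297871, 405793 and 386804 in the reference, with glucose between the other conditions.

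Named members in no list numbered 19. Cystathionine beta-synthase CTHT_0022050, which joins homocysteine and serine on the way to cysteine, had 8184, 21608 and 15684 in xylose, 67554, 70496 and 110809.8 in glucose and 67980.4, 157154 and 63165 in the reference. The fumarate reductase-like CTHT_0054940 had 12980.4, 14439.8 and 19304 in xylose, 78212, 118755 and 125646 in glucose and 60386, 79066 and 86728 in the reference. CTHT_0040680, which carries the orthology number of 4-hydroxy-2-oxoglutarate aldolase, an enzyme of hydroxyproline breakdown, had 4525, 4629 and 9858 in xylose, 38881, 55896 and 40620.5 in glucose and 40740.2, 33366 and 45243 in the reference. Xylose means in these 3 genes were 15.8, 20.7 and 15.9% of the reference means.

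The acid phosphatase-like CTHT_0002890, of a family that releases phosphate from organic esters, was among the 5 deepest falls with 52.6, 197 and 67.0 in xylose, 1816, 3629.9 and 5541 in glucose and 2268, 3512 and 3554 in the reference. Xylose 2 was the highest xylose library, and without it the reference was 52.0 times xylose rather than 29.5 times. CTHT_0030600 carries the orthology number of the enzyme that starts the synthesis of ergothioneine, a sulfur-containing antioxidant, from histidine, and had 225, 445 and 379 in xylose, 3211, 3296 and 5928 in glucose and 5862, 3559 and 4374 in the reference. The putative glycogen storage control gene CTHT_0000110 had 2613, 4000.2 and 3088 in xylose, 15568, 19185 and 25299 in glucose and 15450.2, 30888 and 17944 in the reference. CTHT_0058890, a sulfuric ester hydrolase-like gene, met the rule only with glucose 3. It had 60.4, 30.9 and 65.2 in xylose, 182, 405 and 1565 in glucose and 295, 483 and 662 in the reference, and the ratio of glucose to reference was 1.49 with this library and 0.611 without it.

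The other named members without a list were CTHT_0068430 (a kinesin-like motor), CTHT_0030770, CTHT_0003270, CTHT_0006590 (prohibitin-like), CTHT_0037910 (spartin), CTHT_0006560, CTHT_0029350 (splicing factor CWC26), CTHT_0000090 (sulfhydryl oxidase), CTHT_0015870 (alpha-1,2-mannosyltransferase), CTHT_0015530 (nitrilase-like), CTHT_0058570 (LMBR1 domain) and CTHT_0050150 (an aldolase of rhamnose breakdown). Their xylose means were between 11.1 and 24.7% of their reference means. The lowest was that of CTHT_0050150 and the highest that of CTHT_0037910. For CTHT_0015530 the reference was 6.25 times xylose without xylose 2, rather than 4.13 times.

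Genes without a name held the deepest fall. The uncharacterized CTHT_0020640 had 12.4, 8.7 and 38.6 normalised counts in xylose, 909.7, 1147 and 583 in glucose and 639.9, 1114 and 669 in the reference, where xylose libraries rested on 16, 9 and 45 reads. The reference was 40.6 times xylose, and 76.7 times without xylose 3. CTHT_0060390, uncharacterized in the annotation sheet and listed by the study with a MARVEL domain, had 896, 1289 and 1041 in xylose, 25852, 31543 and 40296 in glucose and 32675, 14962 and 22202 in the reference, with log2-fold changes of -4.36 (SE 0.41) over reference and -4.82 (SE 0.42) over glucose.

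The member with the most reads, CTHT_0060930, is likewise uncharacterized. It had 44520.4, 110001 and 78998 in xylose, 444893, 521008 and 710734 in glucose and 629829, 979624 and 632243 in the reference, and glucose averaged 0.75 times the reference. Next among unnamed genes came CTHT_0019140, with 10970.3, 39155 and 9424 in xylose, 94659, 132308 and 119331 in glucose and 203185, 145867 and 135202 in the reference. Without xylose 2 its glucose mean was 11.3 times rather than 5.82 times the xylose mean. CTHT_0042770 had 10382, 23554 and 19520.1 in xylose, 87337, 135886 and 119071 in glucose and 113238, 84831 and 118038 in the reference, and its glucose and reference libraries overlapped. It met the rule in every subset without 1 library and under every other scaling. CTHT_0060930 and CTHT_0019140 failed in at least 1 of each.

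CTHT_0060000, the tenth by reads and in no annotation sheet held, rested on 1 library. It had 4469, 15398 and 17442 in xylose, 74862, 72572 and 24754 in glucose and 31862, 168485 and 34070.1 in the reference, and without reference 2 the reference was 2.65 times xylose rather than 6.28 times. The pseudogene CTHT_0044510 had 654, 3688 and 2179 in xylose, 23020.5, 30592 and 44883 in glucose and 27860.5, 80754 and 22816 in the reference, and its reference mean was 20.2 times its xylose mean, 11.7 times without reference 2 and 30.9 times without xylose 2. The other pseudogene, CTHT_0027290, had 781, 2773 and 987 in xylose, 5141, 7365 and 9029 in glucose and 8719, 6489.8 and 7670.1 in the reference, and without xylose 2 the reference was 8.63 times rather than 5.04 times xylose. The signal recognition particle RNA, which guides ribosomes to the endoplasmic reticulum and is not normally polyadenylated, had 109.9, 231 and 201 in xylose, 579, 871 and 1405 in glucose and 769, 1611 and 1731 in the reference.

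The 50 genes that the study lists as most different between the sugars held 6 of the 142: CTHT_0044390, CTHT_0041810, CTHT_0060390, CTHT_0047450, CTHT_0055120 and CTHT_0038160. That list was chosen on these same libraries and is no independent evidence. CTHT_0047450, listed there under nitrogen metabolism, had 710.3, 1066 and 729 in xylose, 7158, 8657 and 11873 in glucose and 11699.9, 8997 and 9079 in the reference. CTHT_0055120, listed as an ATP-dependent permease, had 1677, 2137 and 1889.8 in xylose, 12645, 19364 and 23513 in glucose and 21142, 14441 and 19242 in the reference. CTHT_0038160, listed with a RING-like domain, had 344, 301 and 252 in xylose, 1786, 2294 and 2402 in glucose and 1656, 1703 and 1931 in the reference, and its libraries varied by less than 1.5 times within each condition.

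Position in the genome was not used to choose the members. Of the 141 with a place in the RefSeq gene order, 8 (5.67%) stood next to another member, in 4 pairs, beside 3.66% of the 7332 other genes in that order that stood next to a member. The pairs were CTHT_0003260 with CTHT_0003270, CTHT_0022710 with CTHT_0022720, CTHT_0031350 with CTHT_0031360 and CTHT_0041200 with CTHT_0041210. No pair overlapped in the annotation. Uncharacterized CTHT_0003260 had 1640.2, 2921 and 1268 in xylose, 11962, 17157 and 14256 in glucose and 16429, 9417 and 14901 in the reference, and its neighbour CTHT_0003270, with a TRAM, LAG1 and CLN8 domain, had 3315, 5606 and 4865 in xylose, 11769, 16466 and 28542 in glucose and 16163, 33496 and 21915 in the reference.

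CTHT_0031350, CTHT_0031360 and CTHT_0041210 had few reads, with reference means of 169, 257 and 244 normalised counts. The 223 other neighbours of members with a reference mean of at least 100 had a median ratio of xylose to reference of 0.702, against 0.928 over the 6249 genes. In 63 of them (28.3%) every xylose library was below every other, beside 21.5% of all these genes. No test was made of this difference.

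In the reference, members had more reads than most genes. The rule used the reference mean and so favours high values there. In xylose the median member had 1092 normalised counts. The median reference mean was 8261 normalised counts, against 1557 over the 6249 genes, and 117 of the 142 were above the median gene. The 100 genes with the most reads in the reference included 15 members, while members were 1.82% of all genes listed. All of this is without correction for length. At the low end, 5 members had fewer than 10 reads in at least 1 library: CTHT_0020640, CTHT_0047520, CTHT_0049030, CTHT_0050760 and CTHT_0013670, with the fewest in CTHT_0050760, which had 22, 3 and 31 reads in xylose, 273, 223 and 23 in glucose and 462, 48 and 157 in the reference.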

How the data were processed

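Poly(A) RNA of 9 cultures was sequenced as single-end reads with a directional kit. Following the study's methods, the authors checked reads with FastQC, mapped them with TopHat2 to the Ensembl genome and counted them per gene with summarizeOverlaps. The read counts they deposited are not normalized. Whether strand was used, and how reads matching several genes were treated, is not given in the sources used here.

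For the rule, counts were divided by median-of-ratios size factors over the 6503 genes with at least 10 counts in all 9 libraries. The background test was edgeR 4.0.16 (limma 3.58.1, R 4.3.3), quasi-likelihood, with TMM, filterByExpr (minimum count 10), 1 model over the 3 conditions and Benjamini-Hochberg adjustment at 0.05. A standard error is the log2-fold change divided by the square root of F. The procedure was tested on simulated data. DESeq2 1.42.0, the tool of the study (its version is not given in the sources used here), was run as an alternative. Other alternatives were other scalings, filters and limits, leaving out each library, fitting only the conditions compared, and a block for the replicate number.

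Totals were 38806913 to 52229013 counts per library. No replicates agreed within sampling noise (median chi-square per gene at least 30.6), so each library counts once. Samples were grouped by their titles.

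Product names, orthology texts and gene types came from the study's supplementary sheets, of which no value was used. These sheets are held in part. RefSeq (assembly CTHT_3.0, 7472 of 7785 genes matched) gave gene order. It also gave gene types where these sheets had none, and rRNA types beside those of the sheets. Members and lists were chosen with earlier results of these data known. The genes named are the 10 members with the largest reference mean, the 5 with the lowest ratio, all members with a name or orthology number (full values for up to 3 per list, and for further ones chosen after their values were seen), adjacent members, genes at the limits, genes sharing an orthology number and genes the study lists. Genes of the lists that are not members were picked for display after their values were seen. Motif counts in promoters and values per gene length were planned and not run, since no sequence or length was used here. The labels give 48 h of depletion and the study's Methods a shorter time; the label value is used.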

Additional observations from a re-analysis of the deposited data

How the results depend on the processing

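The number of genes lowered by xylose only was 142 with the rule as given, 246 with a fold limit of 3 and 90 with a narrower window for the ratio of glucose to reference (0.8 to its inverse). It was 104 when libraries were scaled by total counts, of which 96 were among the 142, and 133 with TMM scaling, of which 120 were. Under all 4 other scalings 66 of the 142 stayed, and 49 stayed both there and without any 1 library. Among the genes described above, some failed in at least 1 scaling and in at least 1 subset. They included CTHT_0041810, CTHT_0060390, CTHT_0060930, CTHT_0019140, CTHT_0012730, CTHT_0064450, CTHT_0054940 and CTHT_0029500. Without 1 library the number was 121 to 187. The other limits and scalings gave 97 to 191 genes. The share of members next to another member was 5.67%. It was 14.2% within 2 positions, but a wider window raises any such share, and that of other genes was not computed.

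Genes lower in xylose than in the reference numbered 2236 (1900 to 2457 under the alternatives, 1987 to 2457 without 1 library), genes lower than in glucose 1560 (1179 to 1870, and 1257 to 1612 without 1 library), and genes that differed between glucose and reference 3416 (2522 to 3837, all from leaving out 1 library). With scaling by total counts the median log2-fold change over all genes tested was 0.34 rather than 0.16 for xylose over glucose. Without the filter on low counts, 2022 genes were higher and 1409 lower in glucose than in the reference, against 1659 and 1757. For 67 members (those with a name or orthology number, the most read, the deepest falls and those within 2 positions of another), the 1738 fitted log2-fold changes under the alternatives moved by less than 1 SD between replicates. That SD was the largest of the 3 conditions, and leaving out 1 library can hardly move a value so far. The rule fixes the direction of these values. Neither is therefore a sign of stability. For xylose over reference, for example, CTHT_0022720 ran from -4.20 to -2.50 and CTHT_0060000 from -2.93 to -1.45. The median over the members was -2.77 to -2.56 for xylose over reference and -2.87 to -2.36 for xylose over glucose without 1 library. Without reference 2, 4 members were called higher in glucose than in the reference by edgeR, and without glucose 3, 1 was called lower.

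Equal replicate numbers did not mark pairs: the correlation of deviations between samples of the same number ran from -0.281 to 0.289, and not every sample correlated best with its own number. The 3 pairs of number 1 were all positive (0.289, 0.208 and 0.169), those of numbers 2 and 3 ran from -0.281 to 0.065. With a replicate block 2202 genes were lower in xylose than in the reference, 1528 lower than in glucose, and 3343 differed between glucose and reference. Depth limits the 5 members with fewer than 10 counts in a library.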
